A study of Mus musculus with 24 samples.

Results

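The genes of cholesterol synthesis, sterol sensing, sterol transport and sterol efflux were followed in RNA-seq of mouse pancreas. They are 28 named genes, found by matching the Ensembl identifiers of the count table to gene symbols, out of 51912 genes in the table. All 28 passed the filter on low counts, beside 14000 genes in all. RNA came from the whole pancreas of 24 mice of the inbred strain C57Bl/6J, and no transgene or knockout is named for any group. The 8 groups hold 3 mice each, and cross 2 conditions, called normal circadian and circadian disrupted, with sex and an early or a late time point. All early mice were taken on day 1 at zeitgeber time 8. The late females were taken on day 8 at zeitgeber time 176 and the late males on day 9 at zeitgeber time 200, so that sex and day cannot be told apart at the late point. Counted through from day 1, these times fall at the same hour of the day as the early one. With a single hour sampled, a shifted rhythm and a changed mean level cannot be told apart. The sources used here give neither the means of disruption nor the age of the mice nor any drug or diet, and the title of the series places both time points in re-entrainment, the return of a clock to its light schedule.

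Cholesterol is built from acetyl-CoA through mevalonate, the isoprenoids and squalene to lanosterol, the first sterol ring, which a further series of enzymes turns into cholesterol. The transcription factor SREBP2, encoded by Srebf2, is held in the endoplasmic reticulum by the Insig proteins while sterol is plentiful. When sterol is short, Scap escorts it to the Golgi for cleavage, and it then switches on the enzyme genes, while the liver X receptors answer to oxidised sterols and switch on the exporters Abca1 and Abcg1. The acinar cells of the pancreas carry large amounts of endoplasmic reticulum and secretory membrane.

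Promoter sequence is shown for 3 members that passed in at least 1 comparison below. Hmgcs1 was the member with the firmest early difference. Sc5d, an enzyme near the end of the pathway, had an early call near the threshold that most fits with 1 mouse left out lost. Dhcr7, the last enzyme of one of its branches, showed the firmest change with time. Each line is the 250 bases before a RefSeq transcription start on GRCm38.p6, read 5′ to 3′ on the strand of the gene. Capitals mark 3 motifs searched on both strands, a sterol element (TCACNCCAC), the CCAAT box (CCAAT, which reads ATTGG on the other strand) and an E-box (CACGTG, the same on both strands), none of which overlaps another in these windows.
Hmgcs1, chr13:119690101-119690350, plus strand: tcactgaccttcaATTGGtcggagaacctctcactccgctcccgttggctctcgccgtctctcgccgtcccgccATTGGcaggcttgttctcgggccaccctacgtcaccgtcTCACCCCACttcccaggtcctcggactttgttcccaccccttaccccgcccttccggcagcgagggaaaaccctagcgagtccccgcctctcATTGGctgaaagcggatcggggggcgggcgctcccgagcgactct
Sc5d, chr9:42264301-42264550, minus strand: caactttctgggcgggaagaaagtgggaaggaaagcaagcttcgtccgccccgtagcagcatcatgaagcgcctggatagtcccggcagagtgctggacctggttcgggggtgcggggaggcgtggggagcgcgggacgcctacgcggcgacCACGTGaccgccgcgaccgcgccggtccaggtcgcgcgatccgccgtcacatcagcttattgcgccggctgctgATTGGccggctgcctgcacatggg
Dhcr7, chr7:143822917-143823166, plus strand: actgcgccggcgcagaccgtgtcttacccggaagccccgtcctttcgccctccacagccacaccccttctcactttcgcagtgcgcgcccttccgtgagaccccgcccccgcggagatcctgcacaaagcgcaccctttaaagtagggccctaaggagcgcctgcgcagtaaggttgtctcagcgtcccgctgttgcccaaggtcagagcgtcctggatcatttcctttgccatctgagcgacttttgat
The Hmgcs1 window held 1 sterol element, which begins 137 bases before the start, and 3 CCAAT boxes, which begin 237, 176 and 45 bases before it. The Sc5d window held an E-box that begins 98 bases before the start and a CCAAT box that begins 24 bases before it. The Dhcr7 window printed here held none of the 3 motifs, although windows of other RefSeq starts of the same gene held a CCAAT box and, in a separate window, an E-box. RefSeq gave 28 windows for 22 of the 28 members. A CCAAT box was found in 64.3% of these windows and in 33.8% of 32851 promoter windows of all genes, an E-box in 21.4% and 6.02%, and the sterol element in 3.57% and 1.05%. For the sterol element this is 1 window of the 28, that of Hmgcs1. These are matches of letters and not measured binding sites.

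Sequencing gave 31325562 to 62390463 counts per mouse, with 17626 to 19511 genes detected. The tissue label was checked with cell type markers, and 10 acinar markers together made up 280784 to 350409 CPM (counts scaled to library size) in every mouse. The members were low beside them, with between 10 counts for Hsd17b7 and 2214 counts for Insig1 in a single mouse. Markers of other cell types differed between mice. The summed level of 12 lymphocyte markers was 4.53 to 53.9 CPM in normal circadian early mice and 12.4 to 121 CPM in disrupted early mice, and disrupted early female 1 and disrupted late female 1 were the mice with the highest lymphocyte scores. RNA was measured in bulk, so that fewer cells of a type and less RNA per cell cannot be told apart.

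Per kilobase of annotated exon, the sensing and receptor genes stood above most enzymes in normal circadian early mice. Insig1, whose protein holds SREBP2 back, was highest with 9.56 ± 0.92 CPM per kilobase (SD, n = 6). Nr1h2, which encodes the liver X receptor LXR beta, followed with 3.15 ± 0.27, and the escort gene Scap stood at 2.42 ± 0.12. The highest enzyme was the squalene synthase gene Fdft1 at 1.99 ± 0.35, within the spread of Sc5d at 1.76 ± 0.12. At the low end were Stard4, a soluble sterol carrier, at 0.113 ± 0.038, and the ketoreductase gene Hsd17b7 at 0.106 ± 0.030, which overlap in their spread. Hmgcs1, which makes HMG-CoA, the precursor of mevalonate, lay between at 0.943 ± 0.088, and Srebf2 at 1.16 ± 0.13.

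**Figure D1:**
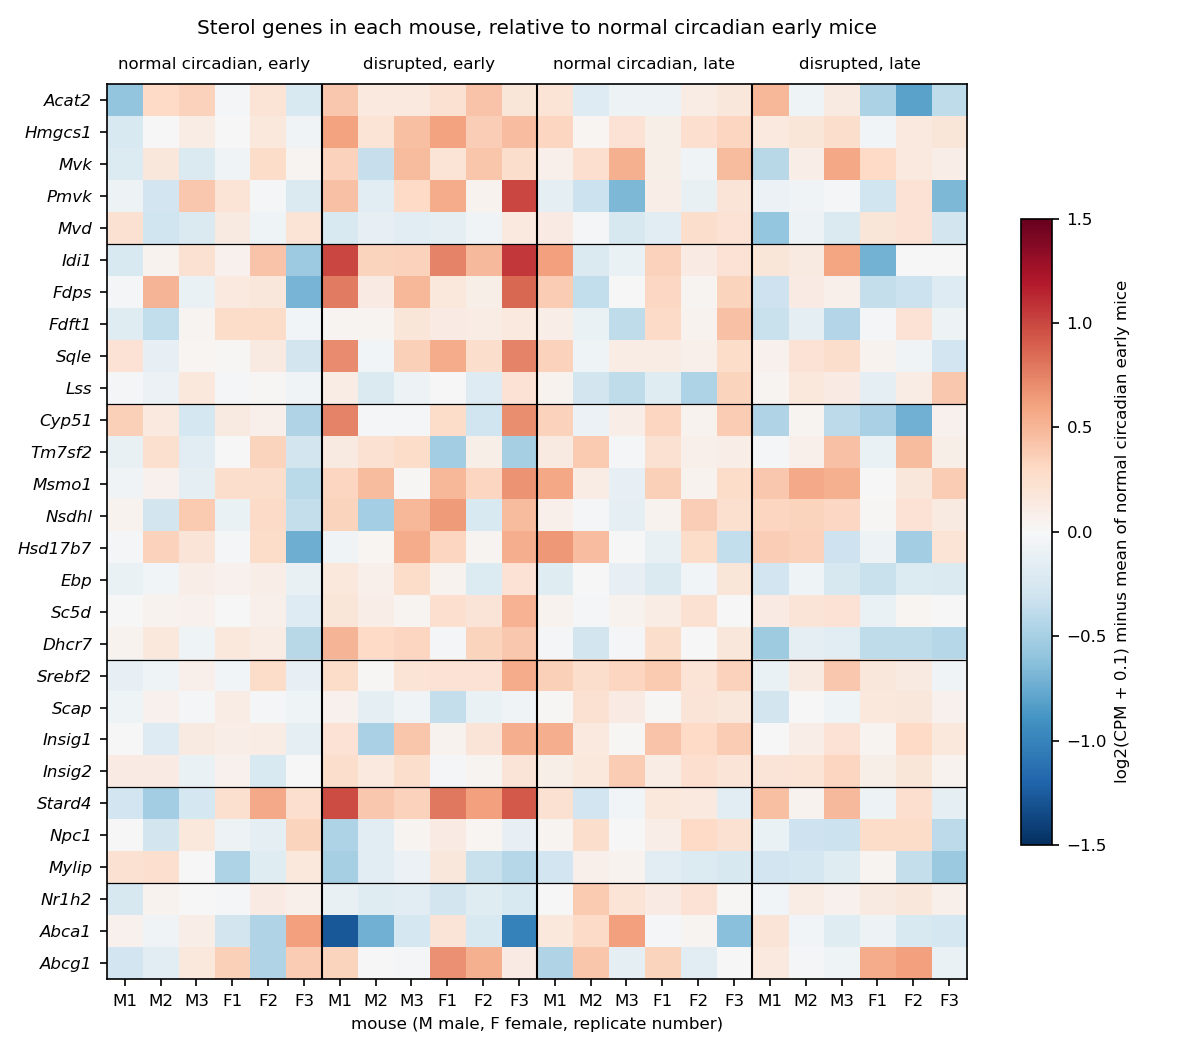
Level of the 28 sterol genes in each of 24 mice as log2(CPM + 0.1) minus the mean of the 6 normal circadian early mice, with genes grouped by role and mice by condition and time point. The disrupted early columns are mostly red from Hmgcs1 to Dhcr7, with disrupted early male 1 and female 3 the darkest for Idi1, and Abca1 is blue in both of those mice.

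The first comparison set disrupted beside normal circadian mice at the early time point. In the disrupted pancreas 5 of the 28 members rose and none fell, namely enzyme genes at separate steps of synthesis and a sterol carrier gene. They were Hmgcs1 among the mevalonate genes, Idi1 and Sqle among the genes from isoprenoids to lanosterol, Sc5d among the later enzymes, and the carrier Stard4. Over all 14000 genes 4.56% passed the same test, edgeR's quasi-likelihood test with Benjamini-Hochberg adjustment at 0.05, and 2.09% passed it as higher in disrupted mice. The log2 fold change was above 0 for 20 of the 28 members and for 51.1% of all genes, with a median of 0.24 over the members and 0.00 over all genes.

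Of the 5 mevalonate genes, Hmgcs1 alone passed. It ran from 3.67 through a median of 4.33 to 4.82 CPM in normal circadian early mice and from 4.97 through 5.96 to 6.61 CPM in disrupted early mice. Every disrupted mouse lay above every normal circadian mouse, a separation upward that 1.17% of all genes showed. The log2 fold change was 0.45 ± 0.08 (SE, 6 mice against 6) with an edgeR adjusted p of 0.0011. Males alone gave 0.46 and females alone 0.45. The kinase gene Pmvk, which makes mevalonate diphosphate, had 0.42 ± 0.19 with an edgeR adjusted p of 0.247, while the thiolase gene Acat2, the mevalonate kinase gene Mvk and the decarboxylase gene Mvd ran from -0.11 to 0.27. Exons of Hmgcs1 overlap an antisense gene, Gm48342, and without strand information reads of the pair cannot be told apart.

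Idi1 encodes the isomerase that readies isoprenoid units for joining, and Sqle encodes squalene epoxidase, which adds oxygen to squalene. Idi1 was 1.27 CPM at the lowest, 1.97 at the median and 2.58 at the highest in normal circadian early mice, against 2.41, 2.96 and 4.04 CPM in disrupted early mice. The groups overlapped through normal circadian early female 2, and the change was 0.67 ± 0.19 on the log2 scale with an edgeR adjusted p of 0.0394. Sqle ran from 2.37 through 2.93 to 3.35 CPM in normal circadian and from 2.80 through 3.99 to 4.90 CPM in disrupted early mice, with a log2 fold change of 0.46 ± 0.12 and an edgeR adjusted p of 0.0252. Its groups overlapped as well, and disrupted early male 1 and female 3 were its highest mice, as they were for Idi1. The remaining genes of this stretch did not pass, with Fdps, which builds farnesyl diphosphate, at 0.42 ± 0.18, the squalene synthase gene Fdft1 at 0.10 and the lanosterol synthase gene Lss at -0.02.

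Of the 8 genes from lanosterol to cholesterol, the desaturase gene Sc5d passed by a small margin, and it did not pass with DESeq2 (DESeq2 adjusted p = 0.0531), without the low-count filter (edgeR adjusted p = 0.0935) or without the 2 mice with the highest lymphocyte scores (edgeR adjusted p = 0.053). Its levels were 7.46 to 9.00 CPM with a median of 8.77 in normal circadian early mice and 8.82 to 12.3 CPM with a median of 9.80 in disrupted early mice. The log2 fold change was 0.22 ± 0.06 with an edgeR adjusted p of 0.0494, and it was 0.07 in males and 0.37 in females, a difference between the sexes that did not pass its own test (edgeR adjusted p = 0.869). Dhcr7, whose product reduces 7-dehydrocholesterol, had 0.31 ± 0.10 with an edgeR adjusted p of 0.0889, and Msmo1, a methyl sterol oxidase, had 0.38 ± 0.13 with 0.110. The other 5, the demethylase gene Cyp51, the reductase gene Tm7sf2, the dehydrogenase gene Nsdhl, Hsd17b7 and the isomerase gene Ebp, ran from -0.06 to 0.26 without passing.

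Among the transport genes Stard4, whose product carries cholesterol between membranes, rose. It ran from 0.393 through 0.614 to 0.950 CPM in normal circadian early mice and from 0.798 through 1.05 to 1.29 CPM in disrupted early mice. Normal circadian females lay above the males of that group, with 3 mice against 3. The conditions overlapped only through normal circadian early female 2, at 0.950 CPM, and disrupted early males 2 and 3. Its log2 fold change of 0.77 ± 0.17 was the largest among the members (edgeR adjusted p = 0.0091). Npc1, which moves cholesterol out of lysosomes, had -0.09 and Mylip, a ubiquitin ligase that liver X receptors induce, had -0.22, and neither passed.

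None of the 4 sensing genes and none of the 3 receptor and efflux genes passed in the early comparison. Srebf2 had a log2 fold change of 0.25 ± 0.09 with an edgeR adjusted p of 0.107, Insig1 had 0.18 ± 0.13, Insig2 had 0.15 and Scap had -0.10. Nr1h2 had -0.20 ± 0.07 with an edgeR adjusted p of 0.0962. Abca1, which exports cholesterol to lipoproteins, ran from 6.78 to 14.4 CPM in normal circadian and from 3.81 to 10.7 CPM in disrupted early mice, and its log2 fold change of -0.51 ± 0.22 did not pass (edgeR adjusted p = 0.231). The exporter gene Abcg1 had 0.27.

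Markers of other cell types moved with the early comparison, mostly those of hepatocytes. The lymphocyte marker Lck, the endothelial Kdr, the ductal Sox9 and the acinar Ptf1a rose, the only ones called in their lists. Of 6 hepatocyte markers listed, 5 were tested and 4, Apoa2, Ahsg, Alb and Fgg, rose, with a median log2 fold change of 3.23 over the tested markers. Their summed level was 1.40 to 2.01 CPM in normal circadian early mice, where Fgg was at 0, and 1.97 to 37.1 CPM in disrupted early mice. Disrupted early females 2 and 3 had hepatocyte scores of 0.08 and -0.26, beside -0.56 to -0.10 in normal circadian early mice. Their Hmgcs1 levels were 5.58 and 5.99 CPM, above the highest normal circadian early mouse. Disrupted early males 1, 2 and 3 and female 1 had scores of 3.53, 2.57, 1.94 and 1.63. Their Hmgcs1 levels were 6.58, 4.97, 5.92 and 6.61 CPM. When the hepatocyte score was added to the fit as a covariate, an alternative chosen after the data were seen, no member passed. Over all 14000 genes 58 then passed, beside 639 without the score. Most disrupted early mice had a score above every normal circadian early mouse, so this fit separates score and condition poorly. Hmgcs1 had 0.28 ± 0.15 with an edgeR adjusted p of 0.587. The other 4 genes then had 0.55 for Idi1, 0.29 for Sqle, 0.29 for Sc5d and 0.55 for Stard4, all with larger standard errors. With lymphocyte and adipocyte scores as covariates Hmgcs1 alone of the members passed, beside 289 genes in all. Idi1 then had 0.80, Stard4 0.75, Sc5d 0.24 and Sqle 0.40, again with larger standard errors. Whether other cell types have a part in the early result was not tested beyond these values.

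For 3 of the 5 genes the early call lay near the threshold and was lost in some fits with 1 mouse left out. Hmgcs1 and Stard4 kept their early call when any 1 of the 24 mice was left out. Sc5d lost it in 20 of these fits, 10 of them without a late mouse and with its log2 fold change still at 0.22, with an edgeR adjusted p of up to 0.159, Idi1 in 8, with up to 0.123, and Sqle in 5, with up to 0.0978. The highest value came without disrupted early male 1 for Idi1 and Sqle and without disrupted early female 3 for Sc5d. Idi1 also lost it without normal circadian early males 1, 2 or 3 or females 1 or 3, or disrupted early females 1 or 3, with 0.0518 to 0.103. Sqle also lost it without normal circadian early males 2 or 3 or female 3, or disrupted early female 3, with 0.0542 to 0.0750. Sc5d kept its call only without female 2 of the normal circadian early, disrupted early or normal circadian late group or female 3 of the last. The number of members called was 2 without disrupted early male 1, disrupted early female 3, normal circadian early male 2, male 3 or female 3, and 3 without normal circadian early female 1.

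**Figure D2:**
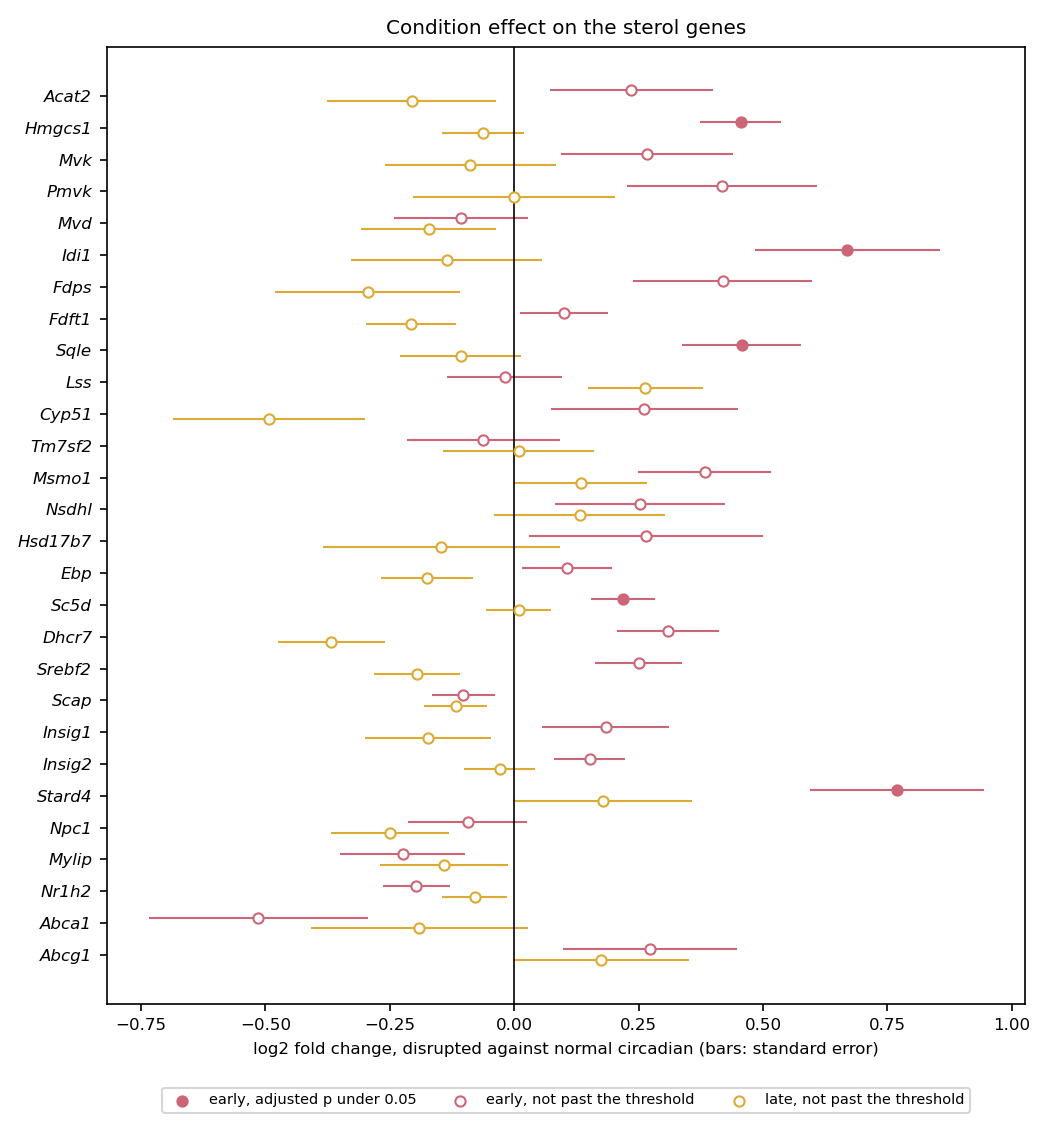
Log2 fold change of each of the 28 sterol genes, disrupted against normal circadian, at the early (red) and late (yellow) time point with its standard error, 6 mice against 6. Filled points passed an edgeR adjusted p of 0.05, and they are Hmgcs1, Idi1, Sqle, Sc5d and Stard4 at the early point and none at the late point.

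At the late time point no member passed by edgeR's quasi-likelihood test or by DESeq2, where 1.35% of all genes passed by edgeR. At an unadjusted p under 0.05 there were 6 of 28 members and 2048 of the 14000 genes. Those members were Fdft1, Lss, Cyp51, Dhcr7, Srebf2 and Npc1, and Lss was the only one of these 6 with a positive log2 fold change, 0.26 ± 0.12. The log2 fold change was below 0 for 21 of 28 members, with a median of -0.13. Dhcr7 came closest, from 2.94 through 3.57 to 4.34 CPM in normal circadian late mice and from 2.46 through 2.73 to 3.27 CPM in disrupted late mice. Its groups overlapped, and the log2 fold change was -0.37 ± 0.11 with an edgeR adjusted p of 0.082. Cyp51, which removes a methyl group from lanosterol, had -0.49 ± 0.19 with 0.22. The genes that rose early had late values of -0.06 ± 0.08 for Hmgcs1, -0.14 ± 0.19 for Idi1, -0.11 for Sqle, 0.01 for Sc5d and 0.18 ± 0.18 for Stard4.

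The condition effect itself differed between the time points for 3 members, Hmgcs1, Dhcr7 and Srebf2, each lower at the late than at the early point. Over all genes 4.81% passed this test of the difference and 2.48% passed it as lower. The difference was -0.52 ± 0.12 on the log2 scale for Hmgcs1 (edgeR adjusted p = 0.0081) and -0.68 ± 0.15 for Dhcr7 (edgeR adjusted p = 0.0065). Both kept the call when any 1 mouse was left out. For Srebf2 the difference was -0.45 ± 0.12 with an edgeR adjusted p of 0.0312. Srebf2 had medians of 7.99 CPM in normal circadian and 9.66 CPM in disrupted early mice, then 10.5 CPM in normal circadian and 9.11 CPM in disrupted late mice, so that the order of the conditions turned round. It lost the call in 13 of the 24 fits with 1 mouse left out, where its edgeR adjusted p rose to at most 0.0698, without disrupted late female 3. The difference was larger in size for Idi1, at -0.80 ± 0.27, and for Cyp51, at -0.76 ± 0.27, but neither passed, and Sqle at -0.56 ± 0.17 had an edgeR adjusted p of 0.0555. Without normal circadian early female 2, disrupted early male 2 or disrupted early female 2 the number of members called was 5. In males alone it was 0, with differences of -0.46 for Hmgcs1, -0.51 for Dhcr7 and -0.37 for Srebf2. In females alone it was 2, Sc5d and Dhcr7, the latter at -0.85 with an edgeR adjusted p of 0.028. With the hepatocyte score as a covariate it was 0, beside 220 genes in all. The differences were then -0.34 for Hmgcs1, -0.80 for Dhcr7 and -0.54 for Srebf2, with larger standard errors.

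**Figure D3:**
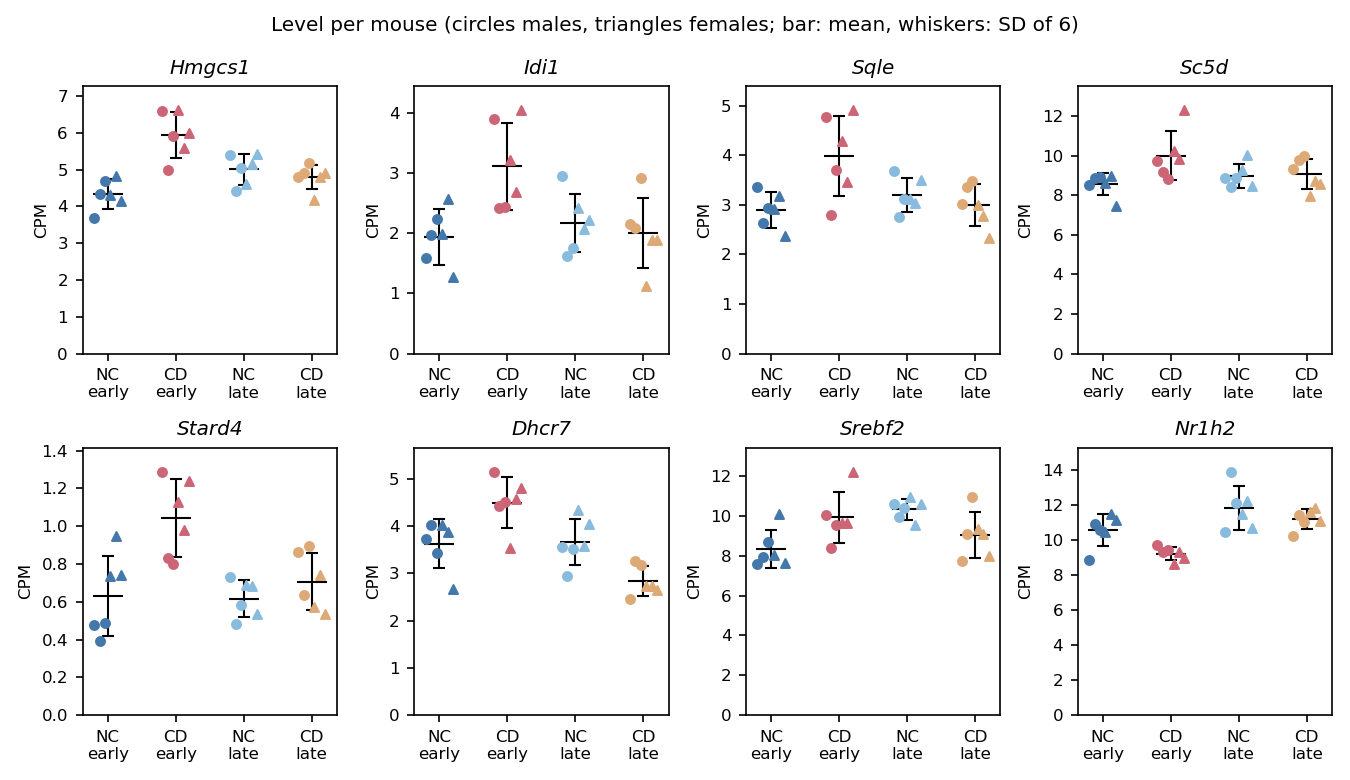
Level in CPM of 8 sterol genes in each mouse by condition and time point (NC, normal circadian; CD, circadian disrupted), circles males and triangles females, with the mean and SD of 6 mice. Hmgcs1 in disrupted early mice lies above all normal circadian early mice, and Dhcr7 in disrupted late mice lies below all disrupted early mice.

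Within the disrupted mice, set late against early, 9 members were lower late and 1 was higher, together 35.7% of the members. The background was high, since 13.9% of all genes passed, 6.55% as lower and 7.36% as higher. The genes that were lower late reach from the mevalonate steps to the last reductase and to the carrier, namely Hmgcs1, Pmvk, Idi1, Fdps, Sqle, Cyp51, Ebp, Dhcr7 and Stard4. This comparison shares the disrupted early mice with the early comparison, and the difference of condition effects is built from the same 24 mice, so their values are given side by side and not as separate support.

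Dhcr7 fell from 3.54 to 5.15 CPM, median 4.54, in disrupted early mice to 2.46 to 3.27 CPM, median 2.73, in disrupted late mice. No late mouse reached the lowest early mouse, a separation downward that 2.24% of all genes showed. On the log2 scale it fell by 0.67 ± 0.10 (edgeR adjusted p = 0.0001). Hmgcs1 fell by 0.31 ± 0.08 on the log2 scale (edgeR adjusted p = 0.0103), with 4.18 to 5.19 CPM in disrupted late mice, which overlapped the early range. Ebp, whose product shifts a double bond in the sterol ring, fell by 0.34 ± 0.09 (edgeR adjusted p = 0.0118). These 3 genes and Nr1h2 kept the call when any 1 mouse was left out.

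The farnesyl diphosphate gene Fdps ran from 4.94 through 5.90 to 8.52 CPM in disrupted early mice and from 3.61 through 3.89 to 5.05 CPM in disrupted late mice. Cyp51 ran from 1.71 through 2.33 to 3.61 CPM early and from 1.25 through 1.55 to 2.22 CPM late, and Ebp from 2.95 through 3.69 to 4.15 CPM early and from 2.67 through 2.88 to 3.24 CPM late. Late mice overlapped early mice for all 3 genes. Among the genes that had risen early, the late disrupted mice stood at 1.12, 1.99 and 2.91 CPM for Idi1, at 2.33, 3.00 and 3.49 CPM for Sqle and at 0.537, 0.689 and 0.893 CPM for Stard4 at the lowest, median and highest. Pmvk ran from 0.834 through 1.25 to 2.00 CPM early and from 0.554 through 0.898 to 1.11 CPM late. The late median lay below the lowest early mouse for Idi1, Stard4, Fdps, Cyp51 and Ebp and within the early range for Sqle and Pmvk.

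Pmvk fell by 0.61 ± 0.19, Fdps by 0.62 ± 0.18, Idi1 by 0.65 ± 0.18, Sqle by 0.43 ± 0.12, Cyp51 by 0.58 ± 0.19 and Stard4 by 0.57 ± 0.17 on the log2 scale, with edgeR adjusted p values from 0.0164 for Sqle to 0.0433 for Cyp51. Each of these 6 lost the call in some fits with 1 mouse left out, Cyp51 in 12, Pmvk in 8, Fdps in 6, Idi1 and Stard4 in 4 and Sqle in 3. Leaving out disrupted early male 1 or disrupted early female 3 ended the call of all 6, and 4 members then passed. Over the 24 fits with 1 mouse left out, 1504 to 2058 of the 14000 genes passed in this comparison. Without disrupted early male 1 the log2 fold changes of the 6 ran from -0.55 to -0.33 and without disrupted early female 3 from -0.57 to -0.36.

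Nr1h2 was the member that went the other way. Its levels were 8.66 to 9.72 CPM in disrupted early mice and 10.2 to 11.8 CPM in disrupted late mice, and the groups did not overlap, which 2.74% of all genes showed upward. Its log2 fold change was 0.28 ± 0.07 with an edgeR adjusted p of 0.0054. With upper quartile scaling in place of TMM 11 members were lower and Nr1h2 stayed the 1 higher, while the split of all genes moved from 1031 higher and 917 lower to 744 higher and 1246 lower.

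Of the hepatocyte markers 4 also fell between these groups, to a summed level of 0.907 to 1.84 CPM in disrupted late mice, where Fgb and Fgg were at 0. Markers of other types were called as well, with the ductal Sox9 and Krt19, the endothelial Kdr and the stellate Col3a1 and Pdgfra lower and the acinar Bhlha15 higher. With the hepatocyte score as a covariate no member passed in this comparison, and far fewer of all genes passed as well. The log2 fold changes were then -0.82 ± 0.22 for Dhcr7 (edgeR adjusted p = 0.0784), -0.84 for Pmvk, -0.72 for Fdps and -0.39 for Ebp, larger in size than without the score. They were smaller in size at -0.11 for Hmgcs1, -0.17 for Cyp51, -0.23 for Sqle, -0.32 for Stard4 and -0.52 for Idi1, and the standard errors of all 10 genes were larger. The part of other cell types in this result was not tested further. Without disrupted early female 1 and disrupted late female 1, the mice with the highest lymphocyte scores, 4 members passed, namely Sqle, Ebp, Dhcr7 and Nr1h2. In males alone Dhcr7 was the 1 member that passed, beside 948 genes in all, and in females alone 10 members did, beside 1456 genes in all. Those 10 included Acat2, Sc5d and Scap and lacked Fdps, Cyp51 and Ebp, and the difference between the sexes was not tested. The male and female late mice were taken on different days, so sex and day cannot be told apart here.

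In normal circadian mice no member passed between the time points by edgeR's quasi-likelihood test or by DESeq2, beside 0.843% of all genes by edgeR. At an unadjusted p under 0.05 there were 5 members and 1909 of all genes. The log2 fold change was above 0 for 23 of 28 members, with a median of 0.11. Over all genes 65 were higher and 53 lower late, and with upper quartile scaling 49 and 62. Srebf2 came closest at 0.31 ± 0.09 with an edgeR adjusted p of 0.0883, from 7.60 to 10.1 CPM early to 9.54 to 10.9 CPM late, and its groups overlapped through normal circadian early female 2. Insig1 had 0.31 ± 0.13 and Hmgcs1 0.21 ± 0.08, and the other 2 of the 5 were Insig2 with 0.20 and Nr1h2 with 0.16. Dhcr7, which fell in disrupted mice, stood at 3.63 ± 0.52 CPM early and 3.67 ± 0.48 CPM late in normal circadian mice (SD, n = 6).

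Between males and females at the early time point no member passed by edgeR or by DESeq2, with 2 members and 2253 of all genes at an unadjusted p under 0.05 and 0.886% of all genes called by edgeR. The 2 members were Stard4, with a log2 fold change of males against females of -0.52 ± 0.17 (edgeR adjusted p = 0.138), and Fdft1 with -0.19 ± 0.09. Over all genes 55 were higher and 69 lower in males, and with upper quartile scaling 37 and 77. Stard4 was 0.479, 0.393 and 0.490 CPM in the normal circadian early males and 0.738, 0.950 and 0.743 CPM in the females of that group. In the disrupted group it was 1.29, 0.834 and 0.798 CPM in males and 1.13, 0.982 and 1.24 CPM in females. The sexes did not overlap in the normal circadian group and overlapped in the disrupted group. For Stard4 the early condition effect was 1.09 in males against 0.45 in females, but a test of that difference gave 0.63 ± 0.35 with an edgeR adjusted p of 0.928. No gene of the 14000 passed the test of a sex difference in the early condition effect by edgeR or DESeq2, with 784 genes and 1 member, Sc5d, at an unadjusted p under 0.05.

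Mice of one group also differed among themselves in these genes, and for several of them the differences ran opposite to those of Abca1. The deviation of each mouse from the mean of its group of 3, in log2 CPM, was set against the Abca1 deviation for the 27 other members. The relation was chosen after its values were seen, so no p value is given for it. Pearson's r over 24 mice was below 0 for 23 of the 27. The share of all genes below 0 was not counted, so this is no trait shown to be particular to the members. The deviations within each group of 3 sum to 0, so the 24 points are not independent. All 27 values share the same Abca1 deviations and are not separate results. Pearson's r was -0.71 for Fdps (Spearman's rho -0.71), -0.70 for Dhcr7 (rho -0.67), -0.68 for Msmo1 (rho -0.73) and -0.65 for Idi1 (rho -0.65). Cyp51 had -0.61 (rho -0.62), Sc5d -0.59 (rho -0.54) and Srebf2 -0.56 (rho -0.51). Scap had -0.53 (rho -0.49), Lss -0.53 (rho -0.60) and Sqle -0.52 (rho -0.55). Among the others below 0, r was closer to 0, with -0.42 for Ebp, -0.14 for Mvd and -0.03 for Insig2.

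Mylip and Npc1 ran with Abca1, with an r of 0.68 and 0.58. The 2 mice farthest from the median were normal circadian early female 3, with Abca1 0.66 above its group mean and the lowest Idi1, Fdps and Dhcr7 of its group, and disrupted early female 3, with Abca1 -0.67 from its group mean. Without them r was -0.57 for Fdps, -0.59 for Dhcr7, -0.58 for Msmo1, -0.56 for Idi1 and -0.54 for Lss. It was then -0.49 for Cyp51, -0.34 for Sc5d, -0.42 for Srebf2, -0.46 for Scap and -0.40 for Sqle. Over all 24 mice Hmgcs1 had an r of -0.27. The points share library and depth with each other. The Abca1 deviation also ran with the scores of macrophage markers (r = 0.58), lymphocyte markers (r = 0.42) and adipocyte markers (r = 0.37), and against that of acinar markers (r = -0.35). The part of these cell types in the relation was not tested.

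**Figure D4:**
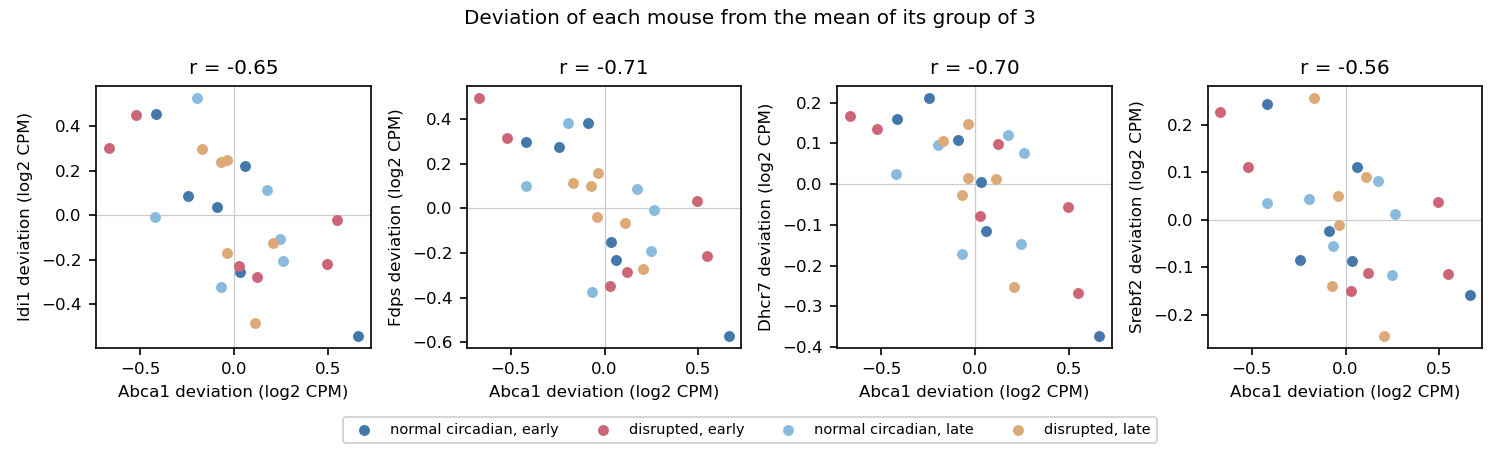
Deviation of each of 24 mice from the mean of its group of 3, in log2 CPM, for Abca1 on the horizontal axis and Idi1, Fdps, Dhcr7 or Srebf2 on the vertical axis, coloured by condition and time point. The points run from upper left to lower right, with r of -0.65, -0.71, -0.70 and -0.56.

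A further list of sterol genes was read beside the members, 39 genes found in the table of 40 listed, of which 37 were tested. At the early time point 3 rose and 3 fell, where 4.56% of all genes passed. Those that rose were Tmem97, whose product binds Npc1, with 0.56 ± 0.11, the outer mitochondrial cytochrome gene Cyb5b with 0.32 ± 0.07, and Acat1, the mitochondrial thiolase, with 0.23 ± 0.06. Those that fell were Por, the electron donor of Cyp51 and Sqle, with -0.67 ± 0.13, the endosomal sterol carrier Stard3 with -0.53 ± 0.07, and the membrane-contact sterol carrier Gramd1a with -0.37 ± 0.08. Their edgeR adjusted p values were 0.0192 for Acat1 and below that for the others, and Acat1 lost its call in 3 of 24 fits with 1 mouse left out. Tmem97 ran from 91.7 to 115 CPM in normal circadian early mice and from 129 to 182 CPM in disrupted early mice. Its groups did not overlap, a separation upward that 1.17% of all genes showed, and those of Cyb5b did not overlap either. Por and Stard3 were separated downward. Por ran from 6.61 to 11.0 CPM in normal circadian and from 4.59 to 6.37 CPM in disrupted early mice, and Stard3 from 6.48 to 8.53 CPM and from 4.60 to 5.50 CPM. At the late time point Rnf145, a ubiquitin ligase of the endoplasmic reticulum, was the 1 gene of this list that passed, beside 1.35% of all genes. It had 0.51 ± 0.09 (edgeR adjusted p = 0.0018), from 5.27 to 6.34 CPM in normal circadian and 7.56 to 8.57 CPM in disrupted mice. Por rose between the time points in normal circadian mice by a log2 fold change of 0.71 ± 0.12 and in disrupted mice by 1.48 ± 0.12. In the disrupted mice 7 of this list were higher late and 6 lower, beside 13.9% of all genes in either direction. Tmem97 was among the lower with -0.69 ± 0.11. The median early log2 fold change over the 37 was -0.01, beside 0.24 for the 28 members.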

How the data were processed

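RNA of whole pancreas was measured by RNA-seq in 24 mice. A modified RNeasy column method after cervical dislocation and TruSeq library preparation were used, per the labels' protocols. The authors deposited RSEM expected counts per Ensembl gene, without normalization. The submitters' processing notes name RSEM, STAR 2.5.3a, edgeR 3.28.0 and bcl2fastq 2.20 beside build GRCm38.p5, without role or order. The strand setting is not given in the sources used here.

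Every column was matched to its mouse by the sample name in the labels. Expected counts were rounded, which altered 7.97% of values. Symbols, exon lengths and overlaps came from GENCODE M21 (GRCm38), which matched 51719 of 51912 genes. After filterByExpr 14000 genes remained. edgeR 4.0.16 in R 4.3.3 was run with TMM factors of 0.943 to 1.12 and robust quasi-likelihood tests on 8 group means over all 24 mice. Contrasts averaged the sexes, and Benjamini-Hochberg adjusted p values over all genes were read at 0.05. The script was tested on simulated data. Levels are CPM with TMM-scaled libraries, and marker scores and deviations use log2 CPM with a prior count of 2. Values after ± are SDs over mice for levels and standard errors of the edgeR fit for log2 fold changes. Counts given for a single mouse carry no measure of spread, and the range of depth per mouse is given above. p values were two-sided.

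The design text of the series speaks of mice, so replicates were taken as separate animals. Exons overlap other genes on the opposite strand for Hmgcs1, Idi1, Fdft1, Lss, Cyp51 and others, and on the same strand for Fdps (Gm43738) and Tm7sf2 (Vps51), whose counts are uncertain to that extent. The members, the further sterol list, the marker lists and the tests were chosen with earlier results of these data known. All 28 members are named whatever their values, and of the further list those called in a condition effect, while others named from it were chosen after their values were seen. Alternatives were DESeq2 1.42.0, other scalings, no filter, a replicate block, marker scores as covariates, each sex alone and leaving out mice.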

Additional observations from a re-analysis of the deposited data

Results flagged for a closer look

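The level of Sc5d in normal circadian early female 3, at 7.46 CPM, stood apart below the other 5 mice of its condition and time point, of which the next lowest was at 8.55 CPM. The gap was 0.712 of the range of the 6 mice. Such a gap was looked for in 112 sets of 6 mice, 28 genes in 4 groups, and chance marks about 1 set in 20. The same mouse had the highest Abca1 level of all 24 mice.

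The condition effect differed between the early and the late time point by -0.52 for Hmgcs1, by -0.68 for Dhcr7 and by -0.45 for Srebf2 on the log2 scale, with edgeR adjusted p values of 0.0081, 0.0065 and 0.0312 over 24 mice.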

How the results depend on the processing

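The members that passed were counted again under each alternative, and no called member changed direction. With the replicate number as a block 3 members passed early, where Idi1 had an edgeR adjusted p of 0.0582 and Sc5d of 0.0623. Over 84 same-number pairs the correlation of deviations was -0.21 to 0.40, with a median of 0.01 and 15 above 0.1. Of 24 mice 12 ran closest to their own number. These values do not settle whether the numbers pair mice. With lymphocyte and adipocyte scores as covariates 1 member passed early, and 289 genes in all. With the hepatocyte score, added after the data were seen, 0 members passed early, in the difference and in the disrupted time comparison, and the gene counts were 58 early, 220 in the difference, 140 in disrupted and 76 in normal circadian mice over time, 328 between the sexes and 2 in the sex difference of the early effect. With males alone the counts were 180 genes and 2 members early, 97 genes late, 201 genes and 0 members in the difference, and 312 genes in normal circadian and 948 genes and 1 member in disrupted mice over time. With females alone they were 209 genes and 2 members early, 21 genes late, 286 genes and 2 members in the difference, and 0 genes in normal circadian and 1456 genes and 10 members in disrupted mice over time. Without the low-count filter 360 genes and 1 member (Dhcr7) passed late, 244 genes and 1 member passed over time in normal circadian mice, and 349 genes between the sexes. Without disrupted early female 1 and disrupted late female 1, 310 genes passed late and 4 members over time in disrupted mice. DESeq2 called 246 genes over time in normal circadian mice and 261 between the sexes, and the lymphocyte and adipocyte scores gave 59 over time in normal circadian mice.

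With 1 mouse left out in turn, the members called ran from 2 to 6 early, from 2 to 5 in the difference, from 4 to 11 over time in disrupted mice, and stayed 0 in the other comparisons. Genes called ran from 434 to 669 early, 71 to 261 late, 527 to 718 in the difference, 38 to 162 and 1504 to 2058 over time in normal circadian and disrupted mice, 55 to 216 between the sexes, and 0 for the sex difference of the early effect. The log2 fold changes ran from 0.54 to 0.81 for Idi1, 0.36 to 0.54 for Sqle and 0.16 to 0.25 for Sc5d early, and from -0.51 to -0.38 for Srebf2 in the difference. The cause of these shifts was not tested. Low counts limit Hsd17b7, Stard4, Acat2 and Pmvk, which had fewer than 20 counts in at least 1 mouse.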
